A study of Homo sapiens with 6 samples.

Results

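The genes described here are 36 genes for heat shock factors, HSP70, HSP110, HSP90 and HSP40 proteins, their cochaperones, small heat shock proteins and chaperonins, out of 60675 genes counted. They were chosen by symbol from a fixed list, with no measured value in the rule, and each symbol was matched to 1 Ensembl gene. All 36 passed the filter on low counts. The working name of the list was cytosolic chaperone and heat shock genes. That name held for 32 of them, since HSPA9, HSPD1 and HSPE1 encode mitochondrial proteins and SERPINH1 encodes a collagen chaperone of the endoplasmic reticulum. RNA-seq was carried out on PLC/PRF5 cells, a cell line from a human hepatocellular carcinoma, with 3 libraries labelled control and 3 labelled MTR4 KD. MTR4 is an RNA helicase that feeds RNA to the nuclear exosome, and the question of the comparison was which genes depend on it in this cancer. The paper describes the cells as iMTR4 cells, which carry a doxycycline-inducible shRNA against MTR4, before and after doxycycline. The labels give genotype and cell line alone, so the libraries represent 1 line. The paper's methods print 1 MTR4 shRNA sequence, while its supplement describes assays with different MTR4 shRNAs. The labels do not say which shRNA was used. They also do not say whether the inducible line or a line with a stably expressed shRNA was sequenced. For the inducible line, knockdown and doxycycline cannot be told apart, since no libraries of doxycycline-treated cells with a scramble shRNA were analysed here. The labels do not say whether replicates came from separate cultures, and p-values therefore measure only the spread between these libraries.

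The libraries held 60686786 to 72708682 reads counted on genes. They fell into a pair of library sets by the share of reads without a unique alignment, which was 34.6% to 37.5% in control 1, control 3 and MTR4 KD 3 and 14.8% to 18.2% in control 2, MTR4 KD 1 and MTR4 KD 2. MTR4 itself (MTREX) was at 72.2, 87.4 and 74.4 CPM (counts divided by TMM-adjusted library sizes) in the control libraries and at 44.6, 48.8 and 44.1 CPM in the MTR4 KD libraries. Its log2 fold change was -0.82 (SE 0.0542, adjusted p = 3.62e-07). All 10 hepatocyte and hepatoma markers were expressed. Their sum was 19860 to 21750 CPM in control and 19130 to 20380 CPM in MTR4 KD libraries, of which SERPINA1 alone held 8406 to 11460 CPM. Single markers moved both ways. ALB, APOA1 and TTR were higher in all MTR4 KD libraries than in all control libraries, and AFP, KRT8 and KRT18 were lower. TTR was at 14.7 to 16.1 CPM in control and 24.9 to 31.8 CPM in MTR4 KD libraries, and KRT8 at 1372 to 1588 and 1236 to 1271 CPM. Of the markers of other cell types, the 4 of leukocytes summed to 2.00 to 4.74 CPM in control and 2.13 to 3.23 CPM in MTR4 KD libraries. The 4 of fibroblasts summed to 7.02 to 12.4 and 5.56 to 10.2 CPM, and the 2 found for endothelium stayed under 1 CPM.

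Chaperones bind unfolded proteins and help them to reach or regain their folded state. HSP70 proteins bind exposed hydrophobic stretches in a cycle of ATP hydrolysis that J proteins (HSP40) start and that nucleotide exchange factors such as HSP110 and BAG3 reset. HSP90 takes over late folding steps of kinases and steroid receptors with the aid of cochaperones, and the ring-shaped TRiC complex (also called CCT) folds actin and tubulin. Under heat or proteotoxic stress the transcription factor HSF1 forms trimers, binds heat shock elements made of inverted GAA repeats and turns on many of these genes, while HSPA8, HSP90AB1 and the TRiC subunits are abundant without stress.

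Promoter sequences are shown because the list joins genes known as heat-inducible with genes known as constitutive, and the heat shock element is the textbook binding site of HSF1. RefSeq promoters of GRCh38.p14, from 250 bases before to 50 bases after 1 listed start of each gene, were in the table for 32 of the 36 genes. That start was not always the outermost one. The windows of HSPA8, DNAJB1 and CCT5 lay wholly inside the gene as RefSeq annotates it. For DNAJB1 the window was 14529222 to 14529521 in a gene from 14514769 to 14560391 of chromosome 19. The lack of a motif for DNAJB1 and CCT5 therefore holds for these windows only. HSF1, FKBP4, CRYAB and CCT6A had no entry in it. The motifs searched were GAANNTTC and TTCNNGAA, each of which reads the same on both strands, and the element of 3 units, GAANNTTCNNGAA or TTCNNGAANNTTC, which overlaps both of the shorter motifs. At least one of the short motifs was present in 12 of the 32 promoters (37.5%), compared with 13.5% of all 35116 promoters of that length in the table. The element of 3 units was present in 5 of the 32 (15.6%) and in 0.49% of all promoters. The 5 were those of HSPA8, CHORDC1, DNAJA1, DNAJB6 and SERPINH1. In the stretches below, written 5′ to 3′ on the strand of the gene, capitals mark these motifs.
HSPA1A: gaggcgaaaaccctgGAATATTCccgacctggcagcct
HSPA1B: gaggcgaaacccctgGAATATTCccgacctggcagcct
CHORDC1: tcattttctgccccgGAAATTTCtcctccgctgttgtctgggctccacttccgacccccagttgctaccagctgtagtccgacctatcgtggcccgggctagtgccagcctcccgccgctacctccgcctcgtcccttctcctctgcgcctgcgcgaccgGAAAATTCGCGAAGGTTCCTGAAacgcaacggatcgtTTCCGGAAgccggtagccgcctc
HSPA8: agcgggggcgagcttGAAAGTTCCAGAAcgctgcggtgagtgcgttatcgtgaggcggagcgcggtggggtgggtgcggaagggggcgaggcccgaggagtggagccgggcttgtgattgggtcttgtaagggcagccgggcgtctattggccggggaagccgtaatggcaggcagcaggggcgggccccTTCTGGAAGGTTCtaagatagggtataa
DNAJB6: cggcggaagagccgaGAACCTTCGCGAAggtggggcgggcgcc
SERPINH1: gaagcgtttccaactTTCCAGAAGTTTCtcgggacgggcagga
HSPB1: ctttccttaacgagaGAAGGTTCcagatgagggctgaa
TCP1: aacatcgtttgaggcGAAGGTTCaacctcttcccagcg

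These stretches lie before the start used in the promoter table. For HSPA8 that start is inside the gene as RefSeq annotates it, from 123057489 to 123062462 of chromosome 11, so its stretch lies before one start and within the gene. HSPA1A is at chr6:31815422-31815459 and HSPA1B at chr6:31827618-31827655, both on the plus strand, with the motif starting 106 and 105 bases before the gene. CHORDC1 is at chr11:90223050-90223269 and HSPA8 at chr11:123062164-123062381, both on the minus strand. DNAJB6 is at chr7:157336858-157336900, SERPINH1 at chr11:75562162-75562204 and HSPB1 at chr7:76302476-76302513, all on the plus strand, and TCP1 is at chr6:159789811-159789848 on the minus strand. Genes with a motif moved in both directions after knockdown. Of the 12, HSPA1A, HSPA1B and CHORDC1 rose, HSPB1, TCP1 and CCT4 fell, and HSPA8, HSPA9, DNAJA1, DNAJB6, HSPB8 and SERPINH1 did not pass the test. In the same fit, described below, 9.43% of all genes tested rose and 10.8% fell. The motif of CCT4 lay after the listed start. DNAJB4, which had the largest rise of the 36, had neither motif in this window. HSP90AB1, CDC37, AHSA1, CCT2, CCT5, CCT7 and CCT8, which fell, also had neither. Whether the motif bears on the change was not tested.

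Changes of these genes after MTR4 knockdown were small and went both ways. In a fit with library set and condition as terms (edgeR's quasi-likelihood test, Benjamini-Hochberg adjustment over all 18075 genes tested), 15 of the 36 genes had an adjusted p under 0.05, of which 4 rose and 11 fell. By the same rule 20.2% of all genes tested were called, 9.43% as higher and 10.8% as lower. Since 33 of the 36 had a mean of at least 20 CPM, the share among all genes at that level is also given, and it was 28.9%, with 13.2% higher and 15.6% lower. The genes that rose were HSPA1A, HSPA1B, CHORDC1 and DNAJB4, and those that fell were HSP90AB1, FKBP4, CDC37, AHSA1, HSPB1, TCP1, CCT2, CCT4, CCT5, CCT7 and CCT8. The largest rise was 1.21-fold and the largest fall 1.19-fold, so none passed a fold change of 2, which 1.92% of all genes passed together with the adjusted p. The median log2 fold change was -0.08 over the 36 genes and 0.01 over all genes tested.

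These calls rested on the term for the library set. With condition as the only term, 0 of the 36 genes had an adjusted p under 0.05, compared with 3.6% of all genes, and 7 of the 36 had an unadjusted p under 0.05, compared with 18.8% of all genes. The lowest adjusted p of a listed gene was then 0.0527, for DNAJB4. The estimates without the set term were 0.27 for DNAJB4, 0.25 for HSPA1B, 0.27 for CHORDC1, -0.23 for FKBP4 and -0.17 for CCT4, within 0.05 of those with it. Among the called genes, estimates moved by over 1.5 times for HSPB1 (-0.21 to -0.63), HSP90AB1 (-0.18 to -0.10), CCT2 (-0.13 to -0.07) and CCT7 (-0.15 to -0.08). Estimates of genes not called moved as well, as for HSF1 (-0.03 to -0.25). The typical variation between libraries of a group, as edgeR's common biological coefficient of variation, was 0.175 without the set term. With that term, which takes out the difference between the sets, the remaining variation was 0.0573. With the replicate number as a block in place of the set, 0 of the 36 were called, compared with 4.74% of all genes, and 8 had an unadjusted p under 0.05, compared with 21.8% of all genes. The lowest adjusted p was then 0.0587.

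The calls also depended on single libraries. Without MTR4 KD 3, the knockdown library of the set with more non-unique reads, the genes called were DNAJB4, HSPA1B, FKBP4 and CCT4, so 4 of the 36, compared with 14.2% of all genes in that fit. Without MTR4 KD 1 they were those 4, CCT5 and CDC37, so 6 of the 36, compared with 12.9% of all genes. Without control 1 there were 3 higher and 7 lower genes, without control 2 there were 3 and 8, and without control 3 (with HSPE1 among the lower) or MTR4 KD 2 there were 4 and 7, compared with 15.2% to 15.8% of all genes in these 4 fits. DNAJB4, HSPA1B, FKBP4 and CCT4 were thus called in all 6 of these fits, CCT5 and CDC37 in 5, HSP90AB1 and HSPB1 in 4, and HSPA1A and CHORDC1 in 3. CCT7 was called in 2, AHSA1 and TCP1 in 1, and CCT2 and CCT8 in 0, with adjusted p-values of 0.067 to 0.183 for CCT2 and 0.0657 to 0.152 for CCT8.

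**Figure D1:**
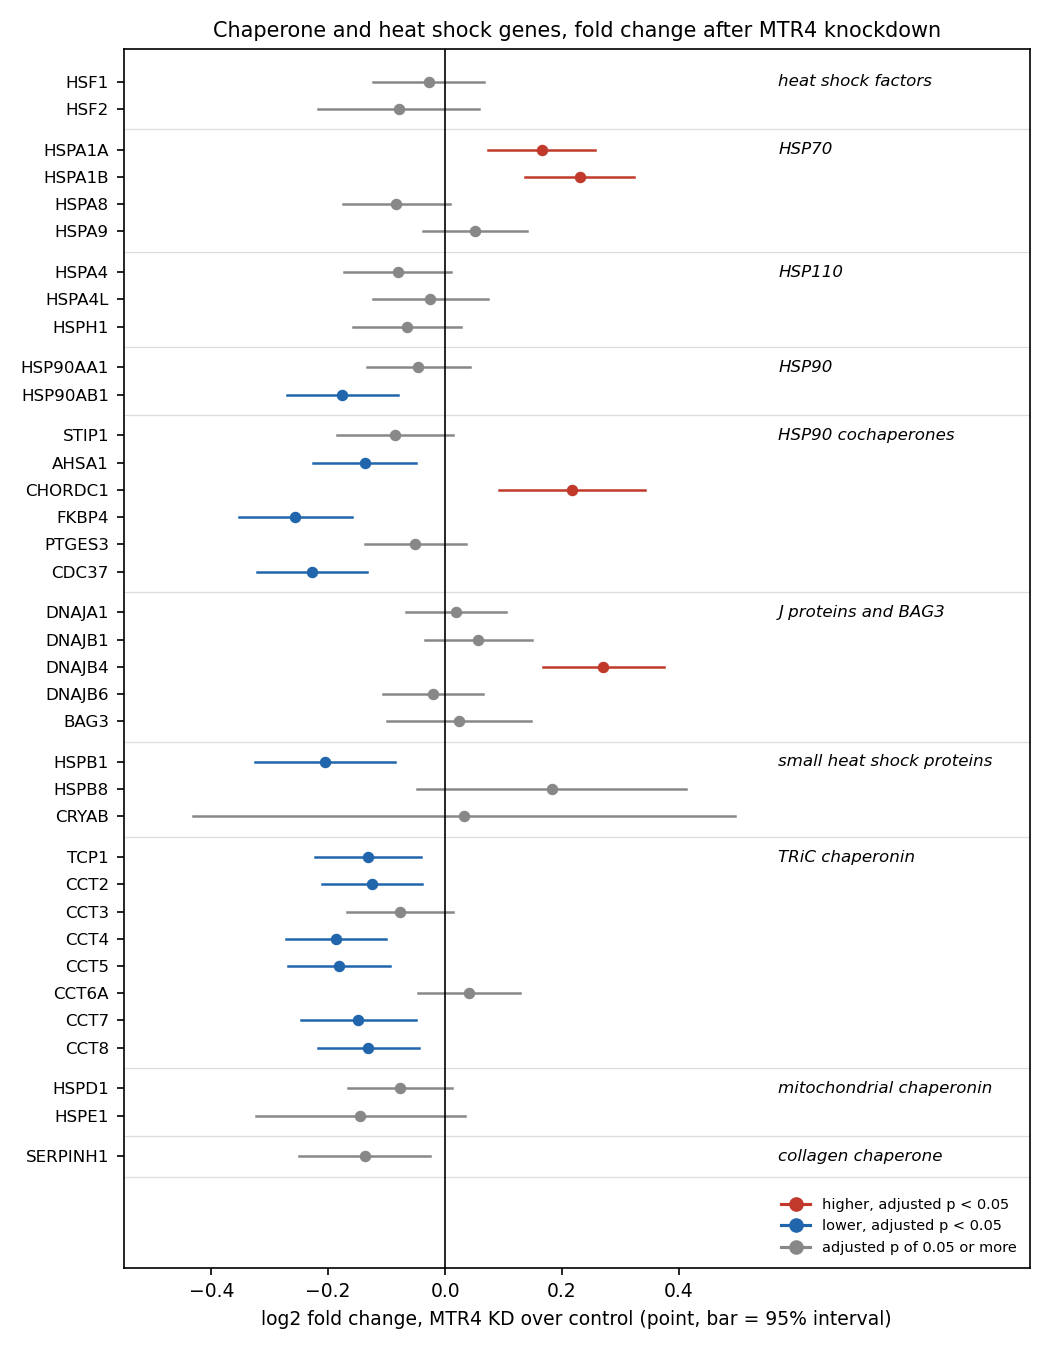
Fitted log2 fold change of each of the 36 genes (horizontal axis, MTR4 KD over control, point) with its 95% interval (bar), ordered by role. The 4 red genes have intervals above 0, the 11 blue genes have intervals below 0, and every estimate lies between -0.26 and 0.27. Colors follow the adjusted p, whereas intervals are not adjusted for the number of genes. SERPINH1 is therefore grey with an interval below 0.

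Neither heat shock factor passed the test. HSF1, the main activator of the heat shock response, was at 98.9, 60.7 and 98.6 CPM in control 1, 2 and 3 and at 62.2, 61.9 and 93.0 CPM in MTR4 KD 1, 2 and 3. The libraries separated by set and not by condition. The log2 fold change of HSF1 was -0.03 (SE 0.0439, adjusted p = 0.718), with a 95% interval from -0.12 to 0.07. That estimate depended on the set term. It was -0.25 with condition only (edgeR's quasi-likelihood test, adjusted p = 0.615) and -0.24 with the replicate block (adjusted p = 0.338). HSF2, a second factor of the family that can form mixed trimers with HSF1, was lower in level, at 20.6 ± 0.86 CPM (SD, n = 3) in control and 19.2 ± 0.774 CPM (SD, n = 3) in MTR4 KD libraries, and its log2 fold change was -0.08 (adjusted p = 0.43).

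Among the HSP70 genes, the heat-inducible pair rose and the constitutive gene did not pass the test. HSPA1A and HSPA1B are intronless neighbours on chromosome 6 of GRCh38 that encode nearly the same protein, the major stress-inducible HSP70. HSPA1A, from 31815543 to 31817942, was at 172, 164 and 183 CPM in the control libraries and at 184, 179 and 201 CPM in the MTR4 KD libraries. The groups overlapped across the sets, but within each set every MTR4 KD library was above every control library. Its log2 fold change was 0.17 (SE 0.0422, adjusted p = 0.0146). HSPA1B, from 31827738 to 31830254, was at 87.5, 91.0 and 85.8 CPM in the control libraries and at 110.1, 103 and 102 CPM in the MTR4 KD libraries. All MTR4 KD libraries were above all control libraries, and the log2 fold change was 0.23 (SE 0.0429, adjusted p = 0.00223).

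Reads of this pair cannot always be told apart. Of the 50-base windows of the main transcript, 75.1% of HSPA1A and 71.6% of HSPA1B occurred unchanged in the other gene. Reads without a unique alignment were not counted on a gene, and their share differed between the library sets. Both counts, and any sum of them, may therefore leave out reads from these windows. The sum of the pair was also taken. It was 258.9, 255 and 268.5 CPM in the control libraries and 293.7, 282.3 and 303 CPM in the MTR4 KD libraries. The groups did not overlap, and the summed counts, fitted as 1 gene, gave a log2 fold change of 0.19 (SE 0.0408, adjusted p = 0.00581).

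HSPA8, the constitutive HSC70 and the most abundant of the 36 genes, was at 2832, 2794 and 2743 CPM in the control libraries and at 2644, 2717 and 2588 CPM in the MTR4 KD libraries. Its MTR4 KD libraries were all below its control libraries, but the log2 fold change of -0.08 (SE 0.0422, adjusted p = 0.192) did not pass the test. HSPA9, the mitochondrial HSP70 called mortalin, was at 906 ± 61.4 CPM in control and 968 ± 42.9 CPM in MTR4 KD libraries (SD, n = 3), with a log2 fold change of 0.05 (adjusted p = 0.431).

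The HSP110 genes HSPA4, HSPA4L and HSPH1 encode nucleotide exchange factors of HSP70, of which HSPH1 is the heat-inducible one. None of the 3 was called. Their log2 fold changes were -0.08, -0.03 and -0.07, with adjusted p-values of 0.207, 0.754 and 0.317. Their mean levels in control libraries were 410.2, 65.9 and 243 CPM. The intervals of all 3 reached above 0 and no lower than -0.17.

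Of the HSP90 genes, the constitutive form fell and the inducible form did not pass the test. HSP90AB1 was at 2260, 2641 and 2375 CPM in the control libraries and at 2398, 2411 and 1994 CPM in the MTR4 KD libraries. The groups overlapped across the sets and were apart within each set. Its log2 fold change was -0.18 (SE 0.0439, adjusted p = 0.0126). HSP90AA1 was at 1358, 1749 and 1356 CPM in the control libraries and at 1694, 1721 and 1304 CPM in the MTR4 KD libraries. The 3 libraries with fewer non-unique reads were the high ones. Its log2 fold change was -0.05 (SE 0.0408, adjusted p = 0.48), and the sign turned to 0.08 without the set term. The ratio of HSP90AB1 to HSP90AA1 was 1.66, 1.51 and 1.75 in control and 1.42, 1.40 and 1.53 in MTR4 KD libraries, a measure for which no test was run. Windows shared with other genes made up 19.7% of HSP90AB1 and 19.1% of HSP90AA1, mostly with the pseudogenes HSP90AB3P and HSP90AA2P.

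The HSP90 cochaperones held the largest falls. FKBP4 encodes FKBP52, a prolyl isomerase in the HSP90 complex of steroid receptors. It was at 267, 290.3 and 289.7 CPM in the control libraries and at 242, 251 and 229.8 CPM in the MTR4 KD libraries. All MTR4 KD libraries were below all control libraries, and the log2 fold change was -0.26 (SE 0.0448, adjusted p = 0.00141).

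CDC37 encodes the cochaperone that brings protein kinases to HSP90. It was at 207, 166 and 217 CPM in the control libraries and at 144, 148 and 175 CPM in the MTR4 KD libraries. The lowest control library, control 2, was below MTR4 KD 3 but above both MTR4 KD libraries of its own set. The log2 fold change was -0.23 (SE 0.0435, adjusted p = 0.00264). AHSA1 encodes the activator of the HSP90 ATPase and was at 122, 120.4 and 127 CPM in the control libraries and at 109, 111 and 112 CPM in the MTR4 KD libraries. The groups did not overlap, and the log2 fold change was -0.14 (SE 0.0406, adjusted p = 0.03).

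CHORDC1, a zinc-binding HSP90 cochaperone that is itself heat-inducible, went the other way. It was at 88.7, 92.0 and 76.8 CPM in the control libraries and at 112, 102 and 96.4 CPM in the MTR4 KD libraries. All MTR4 KD libraries were above all control libraries, and the log2 fold change was 0.22 (SE 0.0576, adjusted p = 0.0176). STIP1, which links HSP70 to HSP90, and PTGES3, the p23 protein that holds HSP90 closed, did not pass the test. Their log2 fold changes were -0.09 (adjusted p = 0.223) and -0.05 (adjusted p = 0.417), at control means of 468 and 542 CPM. Thus 1 of the 6 cochaperones rose, 3 fell and 2 were not called, while 9.43% of all genes rose and 10.8% fell. With condition only 0 of the 6 were called, compared with 3.6% of all genes.

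Of the J proteins, DNAJB4 rose. It encodes an HSP40 of the same subfamily as DNAJB1 and was at 56.3, 56.2 and 54.3 CPM in the control libraries and at 69.7, 64.4 and 67.5 CPM in the MTR4 KD libraries. The groups were well apart, and the log2 fold change of 0.27 (SE 0.048, adjusted p = 0.00156) was the largest among the 36 genes. None of the 50-base windows of its transcript occurred in another gene. DNAJB1, the classical heat-inducible HSP40, was at 167, 184 and 171 CPM in the control libraries and at 199, 199 and 169 CPM in the MTR4 KD libraries. MTR4 KD 3 lay among the control libraries, and the log2 fold change was 0.06 (SE 0.0422, adjusted p = 0.389). DNAJA1, a J protein of the cytosol, and DNAJB6, known for holding back polyglutamine aggregates, had estimates of 0.02 and -0.02 on the log2 scale (adjusted p = 0.799 and 0.779).

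BAG3 encodes a nucleotide exchange factor of HSP70 that guides clients to autophagy, and it is strongly induced by HSF1 under stress. It was at 51.7, 43.2 and 55.2 CPM in the control libraries and at 46.5, 47.5 and 50.7 CPM in the MTR4 KD libraries. The groups overlapped. The log2 fold change was 0.02 (SE 0.0567, adjusted p = 0.82), with a 95% interval from -0.10 to 0.15, and it was -0.08 in the set with more and 0.12 in the set with fewer non-unique reads.

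**Figure D2:**
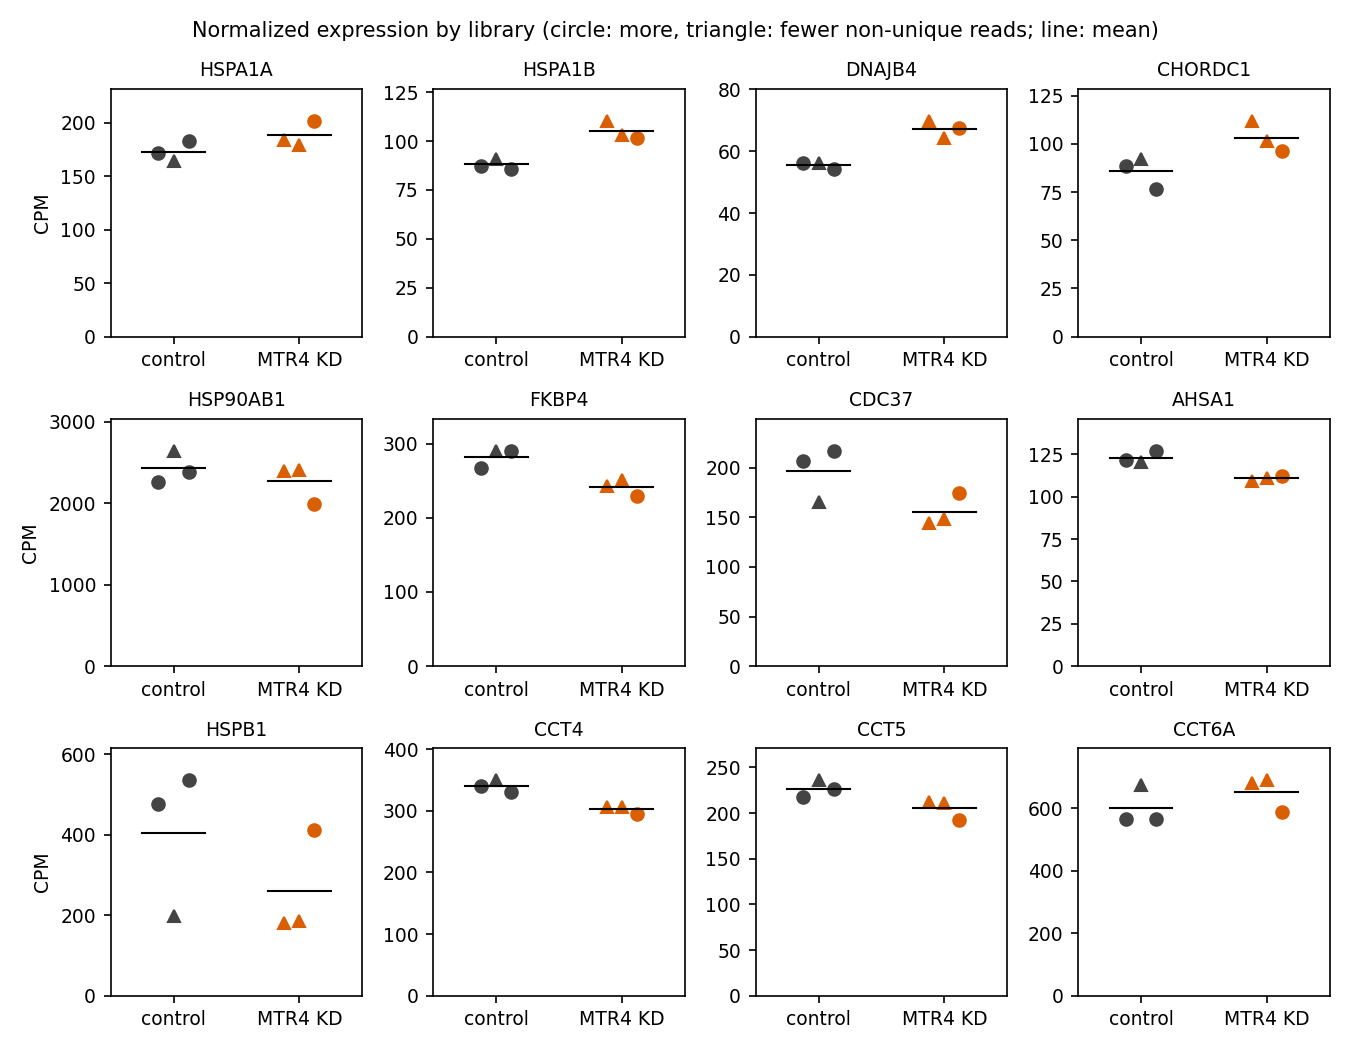
Normalized expression (CPM, linear axis from 0) of 12 genes in each control and MTR4 KD library, where circles are libraries with more non-unique reads, triangles are libraries with fewer and lines are group means. HSPA1B, DNAJB4, CHORDC1, FKBP4, AHSA1, CCT4 and CCT5 have groups that do not overlap, while HSPB1 and HSP90AB1 are apart only among points of the same shape.

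The small heat shock proteins hold unfolded proteins without ATP. HSPB1, known as HSP27, was at 477, 199 and 535 CPM in the control libraries and at 181, 187 and 412 CPM in the MTR4 KD libraries. The 3 libraries with more non-unique reads were far above the others, and within each set the MTR4 KD libraries were below the control libraries. The log2 fold change was -0.21 (SE 0.0554, adjusted p = 0.0193), while the log2 difference between the library sets was -1.26 (fewer minus more). Without MTR4 KD 3 the log2 fold change of HSPB1 was -0.10 (adjusted p = 0.337). HSPB8, a partner of BAG3, was at 7.25 ± 0.399 CPM in control and 7.81 ± 1.45 CPM in MTR4 KD libraries (SD, n = 3), with a log2 fold change of 0.18 (adjusted p = 0.262). CRYAB, the alpha-B crystallin of lens and muscle, had 65 to 135 reads per library, and its interval of -0.43 to 0.50 leaves room for changes in either direction that were not detectable at this depth.

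TRiC was the group with the most falls. The complex is built from 8 different subunits, all of which were measured, and 6 of the 8 fell, while CCT3 and CCT6A were not called. In the same fit 10.8% of all genes fell, and 15.6% of those with a mean of at least 20 CPM. With each library left out in turn, 1 to 4 of the 8 were called, all as lower. In these fits 12.9% to 15.8% of all genes were called in either direction. With condition only 0 of the 8 were called, compared with 3.6% of all genes. Then 1 of the 8 had an unadjusted p under 0.05 (edgeR), compared with 18.8% of all genes. CCT4 was at 339.6, 349 and 330.2 CPM in the control libraries and at 306, 306 and 295 CPM in the MTR4 KD libraries. The groups did not overlap, and the log2 fold change was -0.19 (SE 0.0393, adjusted p = 0.00483). CCT5 was at 218, 236 and 226 CPM in the control libraries and at 212, 211 and 192 CPM in the MTR4 KD libraries. The groups did not overlap, and the log2 fold change was -0.18 (SE 0.0406, adjusted p = 0.0069). Of the windows of CCT5, 54.9% also occurred in other annotated genes, mostly ENSG00000271980, so its count is less certain than that of CCT4.

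TCP1, the founding subunit, was at 438, 448 and 455 CPM in the control libraries and at 413, 422 and 399 CPM in the MTR4 KD libraries. The groups did not overlap, and the log2 fold change was -0.13 (SE 0.0418, adjusted p = 0.0414). TCP1 overlaps ACAT2, which shared 17.7% of its windows. CCT7, at 431, 497 and 462 CPM in control and 452, 468 and 392.5 CPM in MTR4 KD libraries, fell by 0.15 on the log2 scale (adjusted p = 0.0349). CCT8 was at 521, 549.5 and 526 CPM in control and at 499, 503 and 478 CPM in MTR4 KD libraries, with a log2 fold change of -0.13 (adjusted p = 0.0335). CCT2, at 251, 282 and 249 CPM in control and 253, 261 and 230.2 CPM in MTR4 KD libraries, fell by 0.13 on the log2 scale (adjusted p = 0.0396). Groups of CCT8 were apart over all libraries, whereas those of CCT2 and CCT7 were apart within the sets only.

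The calls of TCP1 and CCT2 were the nearest to the threshold, and both were lost when counts were scaled by total counts (adjusted p = 0.0588 and 0.0569) or by DESeq2's size factors (0.0543 and 0.0519). CCT3 was at 620.1 ± 10.8 CPM in control and 588 ± 9.19 CPM in MTR4 KD libraries (SD, n = 3), with a log2 fold change of -0.08 (adjusted p = 0.226). CCT6A was the only subunit with an estimate above 0, at 564, 672 and 564 CPM in control and 681, 689 and 586 CPM in MTR4 KD libraries, with a log2 fold change of 0.04 (adjusted p = 0.528). As a share of the summed CPM of the 8 subunits, CCT6A made up 16.4% to 18.5% in the control and 18.6% to 19.98% in the MTR4 KD libraries. The sum itself was 3490 ± 134 CPM in control and 3338 ± 164 CPM in MTR4 KD libraries (SD, n = 3). These shares and sums were not tested.

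The genes of other compartments did not pass the test. HSPD1 and HSPE1 encode the mitochondrial chaperonin HSP60 and its lid HSP10, and lie head to head on chromosome 2. HSPD1 was at 1197, 1263 and 1187 CPM in the control libraries and at 1180, 1206 and 1134 CPM in the MTR4 KD libraries. The groups overlapped, and the log2 fold change was -0.08 (SE 0.0408, adjusted p = 0.213). HSPE1 was at 45.5, 77.2 and 34.1 CPM in the control libraries and at 70.2, 68.2 and 36.4 CPM in the MTR4 KD libraries. The libraries with fewer non-unique reads were the high ones. Its log2 fold change was -0.15 (SE 0.0824, adjusted p = 0.249), with an interval from -0.32 to 0.03. HSPE1 shared 48.2% of its windows with other genes, above all with the readthrough gene HSPE1-MOB4. SERPINH1 was at 47.1 ± 1.5 CPM in control and 42.8 ± 1.45 CPM in MTR4 KD libraries (SD, n = 3), with groups that did not overlap and an estimate of -0.14 on the log2 scale (SE 0.0518, adjusted p = 0.0817).

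Per length, HSPA8 and HSP90AB1 had the highest levels in both library sets. The level of HSPA8 was 1201 CPM per kilobase of its main transcript over all libraries and that of HSP90AB1 was 918, followed by HSPD1 (532) and HSP90AA1 (474). The place of HSPB1 depended on the library set, at 611 CPM per kilobase in the set with more non-unique reads, above HSPD1 and HSP90AA1, and at 243 in the other set, below CCT3, CCT8 and PTGES3. The subunits of TRiC ranged from 65.55 CPM per kilobase for CCT5 to 305 for CCT3. The inducible HSP70 genes were at 75.2 (HSPA1A) and 38.4 (HSPA1B), and HSF1 was at 37.1. Windows shared with other genes made up 54.9% of CCT5, 75.1% of HSPA1A and 71.6% of HSPA1B. Among the highest genes they made up 27.1% of HSPD1, 19.7% of HSP90AB1, 19.1% of HSP90AA1 and 16.8% of HSPA8. Values per length of all these genes may therefore leave out reads. CRYAB (2.17) and HSPB8 (4.04) were the lowest. In total the 36 genes held 1.64% ± 0.0545 of the counts in control and 1.58% ± 0.0746 in MTR4 KD libraries (SD, n = 3).

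The library sets also differed. The set term was called for 17 of the 36 genes, compared with 31.5% of all genes tested. Of the 17, 12 were higher and 5 lower in the set with fewer non-unique reads. Among the 7914 genes with a mean of at least 20 CPM, it was called for 3827. The estimate of the set term was larger in size than that of the condition for 22 of the 36, and for 55.3% of all genes. That held for 4807 of those 7914. Beside HSPB1, the largest log2 differences (fewer minus more) were 0.94 for HSPE1 (adjusted p = 2.42e-06), -0.64 for HSF1 (adjusted p = 2.54e-07) and 0.38 for HSP90AA1 (adjusted p = 1.47e-05). Neither the labels nor the paper say what differed between the sets.

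**Figure D3:**
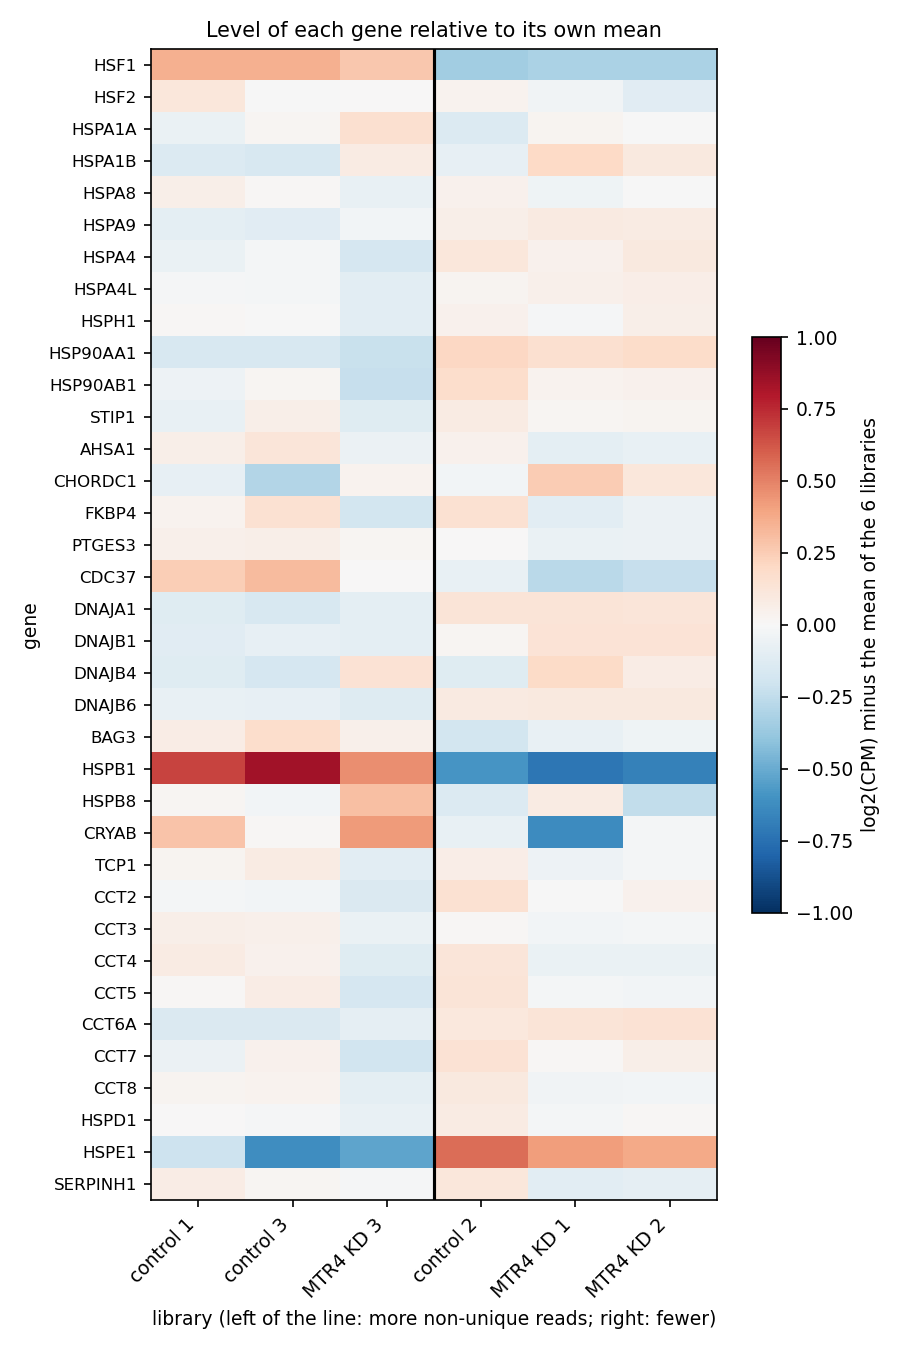
Level of each of the 36 genes in each library as log2(CPM) minus its mean over the 6 libraries (color, rows are genes, columns are libraries). The black line parts the library sets, and HSPB1, HSF1 and HSPE1 change color at that line, whereas HSPA1B, DNAJB4 and CHORDC1 are redder in the MTR4 KD libraries on both sides.

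Since each set held both conditions, the differences were also taken within each set. They had the same sign in both sets for 30 of the 36 genes and for 67.9% of all genes. For 25 of the 36 the MTR4 KD and control libraries were apart, in 1 direction, within both sets, compared with 49% of all genes, and for 12 of the 36 the groups did not overlap over all libraries, compared with 24.7% of all genes. The differences were close to each other for DNAJB4 (0.29 in the set with more and 0.25 in that with fewer non-unique reads), HSPA1B (0.23 and 0.23), CHORDC1 (0.22 and 0.21), CCT4 (-0.18 and -0.19) and FKBP4 (-0.28 and -0.24). They were further apart for HSPB1 (-0.29 and -0.11) and for CDC37 (-0.28 and -0.18). The test of the interaction between set and condition called 0 of the 36 genes (edgeR's quasi-likelihood test, lowest adjusted p = 0.467), and 0 had an unadjusted p under 0.05, compared with 0.974% and 11.1% of all genes. This test had 2 residual degrees of freedom.

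**Figure D4:**
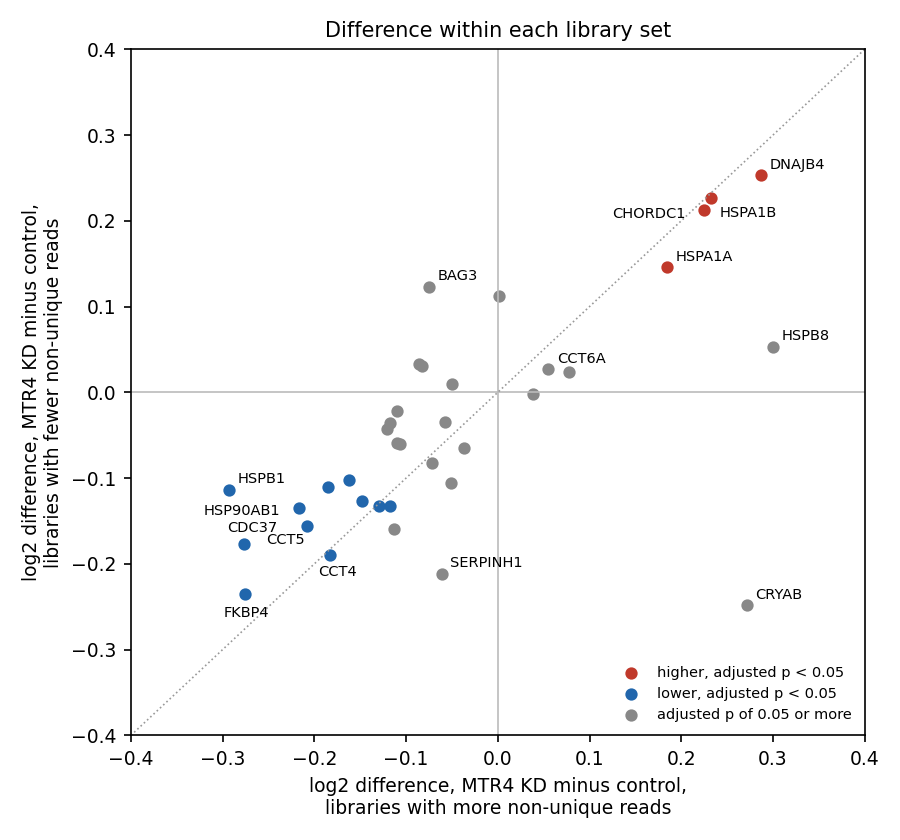
Log2 difference between MTR4 KD and control within the libraries with more (horizontal axis) and fewer (vertical axis) non-unique reads, one point for each of the 36 genes, with equality as the dotted line. The 4 genes that rose are in the upper right, the 11 that fell are in the lower left, and CRYAB, with the fewest reads, is the farthest from the line.

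The other genes of the folding machinery were taken from lists by role. Of 98 such genes 91 were tested, and 6 rose and 13 fell, together 20.9%, which is close to the 20.2% of all genes. Among 16 chaperones of the endoplasmic reticulum, 2 rose and 6 fell. PDIA6 and HSP90B1 had log2 fold changes of -0.26 (adjusted p = 0.0019) and -0.20 (adjusted p = 0.00617), and DNAJB9 had one of 0.22 (adjusted p = 0.00471). HSPA5, the HSP70 of that compartment, was at -0.14 (adjusted p = 0.0862). Among 11 other HSP90 cochaperones, PIH1D1 (-0.42, adjusted p = 8.4e-05), FKBP5 (-0.23, adjusted p = 0.00184) and PPP5C (-0.13, adjusted p = 0.0438) fell, and CDC37L1 (0.31, adjusted p = 0.0117) rose.

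Of 20 other J protein genes only DNAJB2 was called, with a mean of 150.1 ± 3.08 CPM in control and 191 ± 7.21 CPM in MTR4 KD libraries (SD, n = 3) and a log2 fold change of 0.33 (SE 0.0426, adjusted p = 0.000126). It was also called with condition as the only term (adjusted p = 0.0223). Of 8 exchange and ubiquitin-linked cofactors of HSP70, STUB1, the ubiquitin ligase CHIP, rose (0.18, adjusted p = 0.0159). Of 10 prefoldin and phosducin-like partners of TRiC, VBP1 fell (-0.18, adjusted p = 0.00827). Of 11 other mitochondrial chaperones and proteases, TRAP1 (-0.23, adjusted p = 0.00379) and CLPP (-0.21, adjusted p = 0.0109) fell. Of 6 other HSF1-responsive genes, UBB rose (0.24, adjusted p = 0.00545) and IER5 fell (-0.25, adjusted p = 0.00827). None of the 8 other HSP70 and small heat shock genes tested and none of the 3 other heat shock factor genes tested were called (edgeR), with 1 of the 8 and 0 of the 3 at an unadjusted p under 0.05. HSPA6, a strictly heat-induced HSP70, was at 0.51 ± 0.147 CPM in control and 0.884 ± 0.722 CPM in MTR4 KD libraries (SD, n = 3), with an adjusted p of 0.263.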

How the data were processed

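The authors deposited raw counts of reads per Ensembl gene for each library, with the classes of reads not counted on a gene. The submitters' processing notes name HISAT2 2.1.0, HTSeq, DESeq2 and GRCh38 without their roles, and the class names are those HTSeq writes. The strand setting is not given in the sources used here. Groups came from the sample labels. The 36 genes and the other lists were chosen with earlier results of these data known.

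Counts were analysed in R 4.3.3 with edgeR 4.0.16. Genes were kept by filterByExpr with a minimum of 10 counts, library sizes were adjusted with TMM factors, and edgeR's quasi-likelihood model held library set and condition as terms, with 3 residual degrees of freedom. A library was put in the set with more non-unique reads when over 30% of its entries had no unique alignment. An adjusted p (Benjamini-Hochberg) under 0.05 was the threshold, intervals are 95% and not adjusted for the number of genes, and SDs are between libraries. The procedure was tested on simulated data. Values per kilobase used the main transcript of GENCODE, and its transcripts gave the shared windows, which count both strands. Alternatives were condition only, the replicate block, DESeq2's size factors, total counts, other filters, DESeq2 1.42.0, limma-voom (limma 3.58.1), the HSPA1 pair summed and each library left out. Values per library are given for the best-known genes and every called gene, and at most 3 called genes per direction are named from other lists. HSPA5 and HSPA6 were named after their values were seen. Same-numbered libraries of the groups had correlations of deviations of -0.24, 0.325 and 0.352. These followed the library set and cannot tell whether the numbers pair the libraries, and the replicate block was run as an alternative. Libraries of a group differed by more than sampling noise (chi-square per degree of freedom of 4.83 or more).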

Additional observations from a re-analysis of the deposited data

How the results depend on the processing

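The counts of called genes depended on the library set term. With condition only, 0 of the 36 genes rose and 0 fell, 650 genes were called in all, and of the other folding genes 1 rose and 0 fell. With the replicate block in place of the set, 0 rose and 0 fell, 857 genes were called, and 1 other folding gene rose and 0 fell. The labels do not say whether same-numbered libraries were paired. The correlations of deviations cannot decide it, because they followed the library set. They were 0.325 to 0.36 between libraries of the same set and -0.488 to -0.227 between libraries of different sets, whatever the number. With each library left out in turn, 2 to 4 of the 36 rose and 2 to 8 fell, 2409 to 2947 genes were called in all, and of the other folding genes 4 to 6 rose and 5 to 13 fell. The lowest counts of the 36 came without MTR4 KD 3. Of the other folding genes, 6 rose and 13 fell in the fit reported, limma-voom called 10 and 15, and DESeq2's Wald test and the filter of 1 CPM each called 8 and 14. Under DESeq2's size factors and total counts 4 rose and 9 fell, without a filter on low counts 4 rose and 12 fell, with HSPE1 added (adjusted p = 0.0446), and DESeq2's Wald test, limma-voom and a filter of 1 CPM called the same 15. Estimates that were not called changed sign as follows. With condition only, HSPA4L was at 0.0098, HSP90AA1 at 0.081, DNAJB6 at 0.046, BAG3 at -0.052, CRYAB at -0.095 and HSPE1 at 0.16. With the replicate block, HSPA4L was at 0.0082, HSP90AA1 at 0.080, DNAJB6 at 0.045, BAG3 at -0.045, CRYAB at -0.14 and HSPE1 at 0.18. With libraries left out, DNAJB1 ranged from -0.00047 to 0.12, BAG3 from -0.077 to 0.14, CRYAB from -0.20 to 0.27, HSF1 from -0.087 to 0.044, HSPA4L from -0.084 to 0.043 and DNAJB6 from -0.051 to 0.021. No called gene changed sign under the alternatives run, and the cause of the lost calls was not tested.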
